A study of Bos taurus with 8 samples.

Results

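The genes described here are the apolipoproteins APOA1, APOA2, APOE and APOB and the related secreted protein clusterin, CLU. They were taken by name, and 4 of the 5 members were measured among the 18825 genes of the deposited abundance table. APOB was not analysed here. Apolipoproteins are the protein part of lipoproteins, the particles in which cells export cholesterol, triglyceride and fat-soluble vitamins. APOA1 and APOA2 coat high-density lipoprotein and APOA1 takes up cholesterol leaving cells, APOE binds the receptors of the LDL receptor family, and CLU is a secreted chaperone that also rides on high-density lipoprotein and restrains complement. In the mouse, the visceral endoderm of the yolk sac, which descends from the primitive endoderm, secretes lipoproteins toward the embryo. In cattle the primitive endoderm is mostly called hypoblast, and it spreads as a sheet under the epiblast and the trophectoderm.

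Polyadenylated RNA had been sequenced from single cells of bovine embryos, all wildtype with no agent named, at 4 ages from day 6 to day 9 after fertilization. The 286 cells with values came from 6 pooled libraries, numbered replicates 1 to 6 in the labels. The authors' cell table puts each cell in 1 of 7 classes, and those abbreviations are kept here. On day 9 there were 25 LB PE cells (primitive endoderm), 31 LB TE cells (trophectoderm) and 45 LB EPI cells (epiblast). On day 8 there were 37 MB TE cells and 51 MB ICM cells (inner cell mass). The 39 EB cells were of day 7 and the 58 Morula cells of day 6. The labels name no embryo, sex or breed for a cell and do not say how the embryos were made. Another 2 libraries, from embryos given the base editor BE3 with or without a SOX2 guide, were not analysed here.

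Levels are means over cells of 1 class in 1 library, as counts scaled to the same total in every cell (CPM), where the library held at least 3 such cells. Errors are SD over these library averages. CPM is not corrected for gene length, so levels are compared between classes and not between genes. Log2 changes come from limma fitted to log2(CPM + 10) of all 16 averages, and a gene with an adjusted p under 0.05 was called. The added 10 CPM makes the log2 changes of low genes smaller than the ratio of their means. A class had 1 to 3 averages, from replicates 3 and 5 for LB PE and LB TE, from replicates 2, 3 and 5 for LB EPI, from 1, 2 and 3 for MB TE, from 1, 2 and 5 for MB ICM, from 4 for EB and from 4 and 6 for Morula. Days 6 and 7 therefore come from other libraries than days 8 and 9, and age and library cannot be told apart between them. The classes were assigned by the authors to these same cells by steps not stated, so a gene that helped to define a class is no independent evidence about it.

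The recovered reads summed to 48628984 over all cells, from 2633 to 747345 in a cell. The median LB PE cell was shallow at 39210 reads, where LB TE had 196521 reads and LB EPI 196981 reads. The labelled class matched its markers in part. Summed over 12 hypoblast marker genes, LB PE averages stood at 6126 and 6746 CPM, against 420 to 518 CPM in LB TE and 869 to 1022 CPM in LB EPI, although SOX17, a member of that list, was at 0 in LB PE. Of 5 measured hepatocyte markers, 4 were at 0 in LB PE (CYP3A4, ASGR1, ASGR2 and SERPINA1), and 4 of 7 blood markers were at 0 there (PTPRC, HBA, LYZ and CD3E). The summed blood markers were 10.7 to 81.7 CPM in LB PE, against 5.52 to 11.1 CPM in LB TE and 4.62 to 43.8 CPM in LB EPI. The summed fibroblast markers were 275 to 1102 CPM in LB PE, against 109 to 111 CPM in LB TE and 203 to 316 CPM in LB EPI, with TWIST1 at 0 in LB PE. The summed trophectoderm markers were 3627 to 8289 CPM in LB PE, against 38956 to 49907 CPM in LB TE and 1858 to 3519 CPM in LB EPI. The summed epiblast markers were 793 to 867 CPM in LB PE, against 234 to 361 CPM in LB TE and 2585 to 3048 CPM in LB EPI. The part of the blood, fibroblast, trophectoderm and epiblast markers in the results below was not tested.

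**Figure D1:**
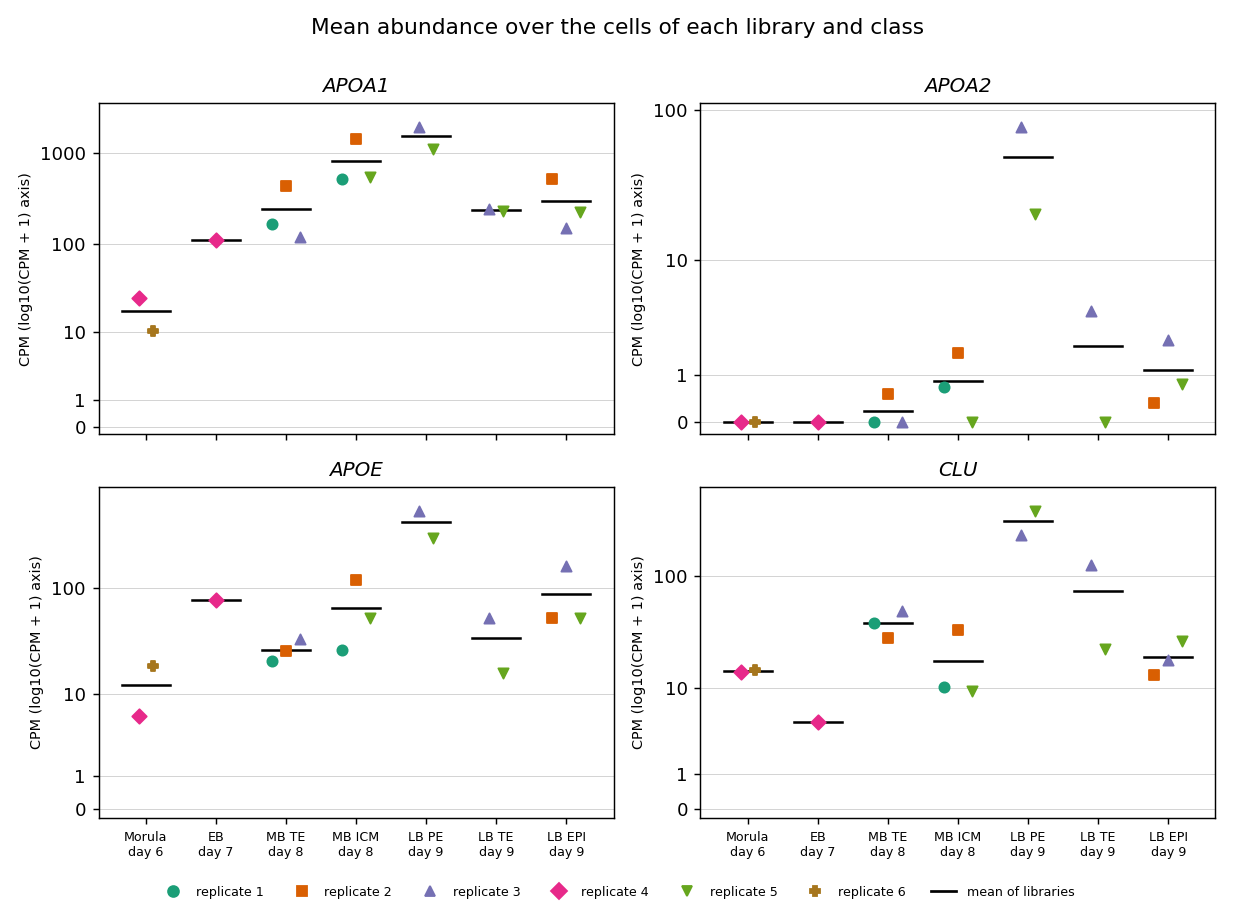
Abundance of APOA1, APOA2, APOE and CLU by class, in CPM on a log10(CPM + 1) axis. Each symbol is 1 library's mean over its cells of that class, and the bar is the mean of the libraries. For each gene both LB PE libraries lie above every LB TE and LB EPI library, a pattern whose share over all genes was not counted.

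All 4 measured genes had their highest class mean in LB PE, and no LB PE average overlapped an average of LB TE or LB EPI. The share of all genes with this pattern was not counted, so nothing is concluded from it. Against LB EPI, all 4 were called higher, where 2.98% of the 12540 genes tested were called higher and 2.41% lower. Against LB TE, all 4 were again called higher, where 2.46% of genes were called higher and 3.39% lower. The comparisons share the LB PE averages. APOA2 reached the filter of 10 CPM only in LB PE, so its difference follows in part from the filter.

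APOA1, the main protein of high-density lipoprotein, had 1911 CPM (replicate 3) and 1112 CPM (replicate 5) in LB PE. In LB TE it had 241.4 CPM (replicate 3) and 227.9 CPM (replicate 5). In LB EPI it had 513.6 CPM (replicate 2), 150.5 CPM (replicate 3) and 225.7 CPM (replicate 5). The lower LB PE library was above each of these libraries. The means were 1511 ± 565 CPM in LB PE (n = 2), 235 ± 9.53 CPM in LB TE (n = 2) and 297 ± 192 CPM in LB EPI (n = 3). The log2 change was 2.59 against LB TE (SE 0.50, adjusted p = 0.00419) and 2.62 against LB EPI (SE 0.47, adjusted p = 0.00293). Within replicate 3 the LB PE mean was 7.92 times that of LB TE and 12.7 times that of LB EPI, and within replicate 5 it was 4.88 times and 4.92 times. Without replicate 3 the change was 2.24 against LB TE (adjusted p = 0.0717) and 1.96 against LB EPI (adjusted p = 0.0787), and without replicate 5 it was 2.93 against LB TE (adjusted p = 0.0656).

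APOA1 was also the member found in most cells from day 8 on. Every one of the 25 LB PE cells had APOA1 reads, as did every MB ICM, MB TE, LB EPI and LB TE cell. In LB PE cells the level ran from 318 to 8803 CPM with a median of 1050 CPM. The cell at 318 CPM had 2 APOA1 reads among 6295. The medians were 187 CPM in LB TE cells and 209 CPM in LB EPI cells. Of the 31 LB TE cells 1 reached the LB PE median, as did 1 of the 45 LB EPI cells and 16 of the 51 MB ICM cells. Within LB PE, the Spearman rho of APOA1 with the reads of the cell was 0.05 over the 14 cells of replicate 3 and 0.15 over the 9 cells of replicate 5.

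On day 8, APOA1 was lower in trophectoderm than in the inner cell mass. It had 166.0 CPM (replicate 1), 435.3 CPM (replicate 2) and 119 CPM (replicate 3) in MB TE. In MB ICM it had 510.3 CPM (replicate 1), 1413 CPM (replicate 2) and 539.5 CPM (replicate 5). The library averages did not overlap, a pattern whose share over all genes was not counted. Over cells of at least 50000 reads they did overlap. There MB ICM of replicate 5 had 389.5 CPM (4 cells) and MB TE of replicate 2 had 435.3 CPM. In both libraries that held both classes MB TE was lower, with ratios to MB ICM of 0.325 in replicate 1 and 0.308 in replicate 2. The log2 change was -1.77 (SE 0.42, adjusted p = 0.0103). APOA1 was the only one of the 4 genes called there, where 4.11% of genes were called lower and 5.97% higher. Without replicate 3 the change was -1.49 (adjusted p = 0.0577), and the MB TE average of replicate 3 rests on 3 cells.

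On day 9 APOA1 was not called between trophectoderm and epiblast. LB TE and LB EPI differed by 0.04 on the log2 scale (95% interval -0.94 to 1.02, adjusted p = 0.991). The day 9 difference minus the day 8 difference was 1.81 (SE 0.63, adjusted p = 0.279) and was not called, where 0.367% of genes were, but with the replicate block as a fixed term it was 2.13 (adjusted p = 0.0388). LB EPI was lower than MB ICM by a log2 change of -1.44 (SE 0.42, adjusted p = 0.0573), which missed the threshold, and with the replicate block as a fixed term the change was -1.40 (adjusted p = 0.0109). LB PE exceeded MB ICM by 1.18 (SE 0.48, adjusted p = 0.303). In descending order of their means the classes were LB PE, MB ICM, LB EPI, MB TE, LB TE, EB and Morula. Of the neighbours in this order that were tested, LB PE and MB ICM, MB ICM and LB EPI, MB TE and LB TE, and EB and Morula did not pass the test. The library values of LB EPI and MB TE overlapped, and LB TE and EB were not tested.

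Before the blastocyst lineages, APOA1 was low. In EB it had 109.8 CPM (replicate 4), against 24.6 CPM (replicate 4) and 10.2 CPM (replicate 6) in Morula. Reads were found in 35 of 39 EB cells, against 28 of 58 Morula cells. With each cell thinned to 20000 reads and shallower cells left out (3 in EB, 8 in Morula), the shares were 68.1% in EB and 21.2% in Morula, where the unthinned shares of the same cells were 91.7% and 56%. The log2 change of 2.11 between EB and Morula was not called (SE 0.63, adjusted p = 0.522), in a comparison that called 0.0797% of genes and has 1 EB average. MB ICM exceeded EB by 2.65 (SE 0.64, adjusted p = 0.163), also not called, where 0.175% of genes were called and scaling by median of ratios moved the median of all genes by 0.14.

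APOA2, another protein of high-density lipoprotein, was highest in few LB PE cells. It had 78.3 CPM (replicate 3) and 20.8 CPM (replicate 5) in LB PE. It had 4.16 CPM (replicate 3) and 0 (replicate 5) in LB TE, and 0.327 CPM (replicate 2), 2.36 CPM (replicate 3) and 0.755 CPM (replicate 5) in LB EPI. The LB PE mean of 49.5 ± 40.7 CPM (n = 2) was 23.8 times that of LB TE and 43.1 times that of LB EPI, and the log2 changes were 2.13 (SE 0.34, adjusted p = 0.000546) and 2.23 (SE 0.31, adjusted p = 0.000182). These SE and adjusted p rest on a spread shared by all classes, and APOA2 was near 0 outside LB PE. They do not measure the wider spread between the 2 LB PE libraries. On day 8 the means were 0.172 ± 0.298 CPM in MB TE and 0.821 ± 0.907 CPM in MB ICM (n = 3 each). A read was found in 0 of 39 EB cells, which allows a share of up to 7.69% of cells with a read, and in 0 of 58 Morula cells, which allows up to 5.17%.

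The LB PE level of APOA2 rests on few cells. Of the 25 LB PE cells 8 had a read (32%, exact 95% interval 14.9 to 53.5%), against 6 of 31 LB TE cells and 6 of 45 LB EPI cells. Thinned to 20000 reads the shares were 23.3% in LB PE, 4.77% in LB TE and 1.88% in LB EPI, where 20, 31 and 43 cells were deep enough. Of the 81 APOA2 reads in LB PE, 42 were in a single cell of replicate 3, and all 24 reads of replicate 5 were in a single cell. The median LB PE cell had none, so APOA2 showed no difference when medians over cells were compared. Over cells of at least 50000 reads, replicate 3 had 5.97 CPM in LB PE, 4.37 CPM in LB TE and 2.36 CPM in LB EPI. Replicate 5 had 37.4 CPM in LB PE, 0 in LB TE and 0.906 CPM in LB EPI over such cells.

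APOE, a ligand of the LDL receptor family, had 513.6 CPM (replicate 3) and 289.0 CPM (replicate 5) in LB PE. In LB TE it had 53.1 CPM (replicate 3) and 16.4 CPM (replicate 5). In LB EPI it had 52.9 CPM (replicate 2), 161 CPM (replicate 3) and 53.4 CPM (replicate 5). Both LB PE libraries were above the highest other library of day 9. The means were 401.3 ± 159 CPM in LB PE, 34.7 ± 26.0 CPM in LB TE and 89.1 ± 62.4 CPM in LB EPI. The log2 change was 3.28 against LB TE (SE 0.50, adjusted p = 0.000464) and 2.17 against LB EPI (SE 0.47, adjusted p = 0.00851).

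The APOE difference was not called in deep cells. Over the LB PE cells with at least 50000 reads, 5 in each library, the averages were 71.2 CPM (replicate 3) and 249.7 CPM (replicate 5), against 161 CPM (replicate 3) and 47.9 CPM (replicate 5) in deep LB EPI cells. Within replicate 3 deep LB PE cells were thus lower than deep LB EPI cells, and the medians over all cells were 110.1 CPM in LB PE and 111.2 CPM in LB EPI. Over deep cells the fitted change was 1.85 against LB TE (adjusted p = 0.0685) and 0.77 against LB EPI (adjusted p = 0.494). Over medians of cells it was 1.99 (adjusted p = 0.115) and 0.97 (adjusted p = 0.492). Without replicate 5 it was 3.05 against LB TE (adjusted p = 0.0577) and 2.24 against LB EPI (adjusted p = 0.0905). The share of cells with an APOE read was 88% in LB PE, 90.3% in LB TE and 91.1% in LB EPI. At 20000 reads a cell, with shallower cells left out (5 in LB PE, 2 in LB EPI), it was 90.7% in LB PE, 40.5% in LB TE and 57.8% in LB EPI. The unthinned shares of the same cells were 100%, 90.3% and 95.3% in that order.

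At the earlier ages APOE was at 27.1 ± 6.66 CPM in MB TE and 66.4 ± 47.4 CPM in MB ICM (n = 3 each), a log2 change of -1.02 that was not called (SE 0.42, adjusted p = 0.137). EB had 77.5 CPM (replicate 4), against 6.05 CPM (replicate 4) and 19.0 CPM (replicate 6) in Morula. Within replicate 4 the EB level was thus 12.8 times that of Morula, and the log2 change of 2.10 was not called (SE 0.64, adjusted p = 0.503). In descending order the classes were LB PE, LB EPI, EB, MB ICM, LB TE, MB TE and Morula, and after LB PE each neighbour's library values overlapped or were not called apart, other than MB TE and Morula, which were not tested.

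**Figure D2:**
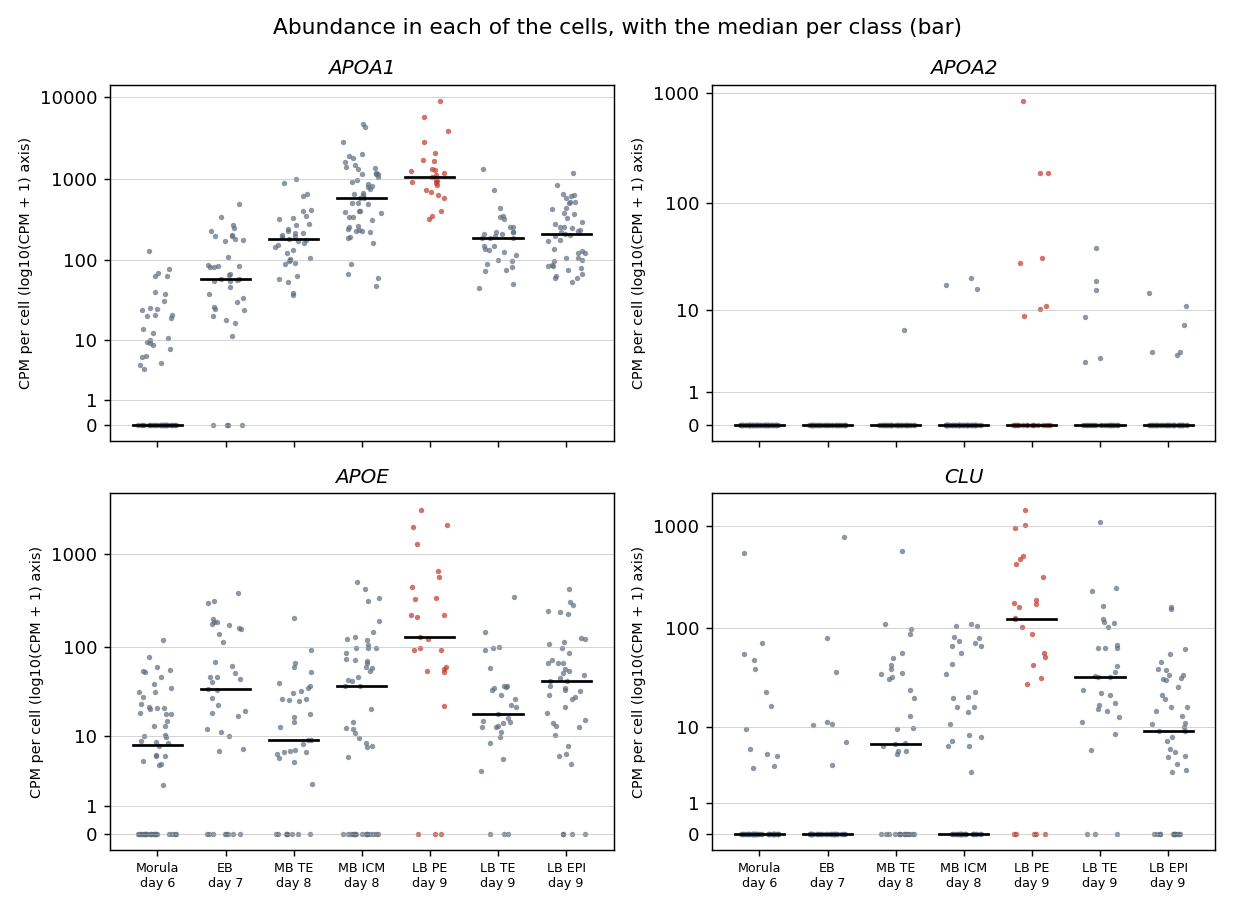
Abundance of the 4 genes in each of the 286 cells by class, in CPM on a log10(CPM + 1) axis, with LB PE cells in red and a bar at the class median. APOA1 was found in all 25 LB PE cells and in every cell of the other day 8 and day 9 classes. The high values of APOA2 and APOE in LB PE, and of CLU in LB PE of replicate 3, belong to few cells.

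CLU, the secreted chaperone, had 223 CPM (replicate 3) and 365 CPM (replicate 5) in LB PE. In LB TE it had 124 CPM (replicate 3) and 22.7 CPM (replicate 5). In LB EPI it had 13.0 CPM (replicate 2), 18.0 CPM (replicate 3) and 26.7 CPM (replicate 5). LB PE and LB EPI were well apart, while the LB TE libraries lay far from each other. The means were 294 ± 100 CPM in LB PE, 73.2 ± 71.5 CPM in LB TE and 19.2 ± 6.95 CPM in LB EPI. The log2 change was 3.37 against LB EPI (SE 0.47, adjusted p = 0.000198), and the ratio was 12.4 within replicate 3 and 13.7 within replicate 5.

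Against LB TE the CLU change was 2.16 (SE 0.51, adjusted p = 0.0133), and it differed between libraries. The LB PE mean was 1.80 times that of LB TE in replicate 3 and 16.1 times in replicate 5. Without replicate 5 the change was 0.80 (adjusted p = 0.518), and over cells of at least 50000 reads it was 1.44 (adjusted p = 0.26). Within replicate 3 the direction turned over those deep cells, at 63.1 CPM in LB PE (5 cells) and 129.9 CPM in LB TE (20 cells), and over medians of all cells, at 54.3 CPM in LB PE and 64.2 CPM in LB TE. Of the 969 CLU reads of the LB TE cells of replicate 3, 67.9% came from a single cell at 1110 CPM. Of the 136 CLU reads of the LB PE cells of replicate 3, 33.8% came from a single cell at 1451 CPM. In MB TE 82.3% of the CLU reads of replicate 1 likewise came from a single cell. The MB TE mean of 38.7 ± 10.4 CPM and the MB ICM mean of 17.7 ± 13.7 CPM (n = 3 each) were not called apart (log2 change 0.83, SE 0.43, adjusted p = 0.251), and neither were LB TE and LB EPI (1.205, SE 0.47, adjusted p = 0.0971), which were called without replicate 5 (2.36, adjusted p = 0.00717).

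At 20000 reads a cell CLU was found in 75.3% of LB PE cells, 52.7% of LB TE cells and 23.3% of LB EPI cells. Shallower cells were left out of these (5 in LB PE, 2 in LB EPI). The unthinned shares of the same cells were 85%, 90.3% and 72.1%, and over all cells they were 80%, 90.3% and 73.3%. EB had 4.57 CPM, against 14.0 CPM (replicate 4) and 14.6 CPM (replicate 6) in Morula, and they were not called apart (log2 change -0.73, SE 0.65). The Morula average of replicate 6 includes a cell of 18162 reads at 551 CPM. Over cells of at least 50000 reads, Morula had 15.1 CPM (replicate 4) and 3.86 CPM (replicate 6), and EB had 5.92 CPM. In descending order the classes were LB PE, LB TE, MB TE, LB EPI, MB ICM, Morula and EB. LB TE and MB TE overlapped, as did LB EPI and MB ICM and MB ICM and Morula, and MB TE lay above LB EPI in every library without a test of that pair.

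**Figure D3:**
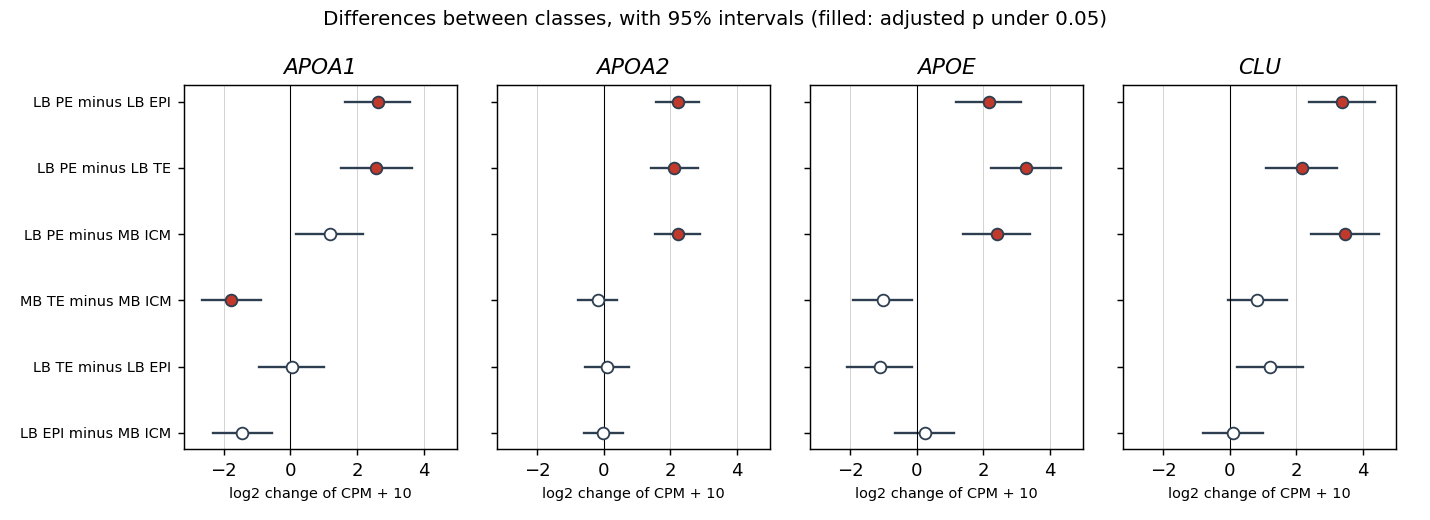
Log2 change of CPM + 10 of each gene in 6 comparisons, the class named before the minus sign set over the class after it. Points are limma estimates, lines are 95% intervals, and filled points have an adjusted p under 0.05. LB PE was called higher than LB EPI and LB TE for each gene.

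Set against the inner cell mass of day 8, LB PE had more APOA2, APOE and CLU. Of the 4 genes 3 were called higher, where 0.59% of genes were. APOA2 is among them, and it reached the filter of 10 CPM only in LB PE, so its call follows in part from the filter. The log2 changes were 2.23 for APOA2 (SE 0.32, adjusted p = 0.00402), 2.41 for APOE (SE 0.48, adjusted p = 0.0253) and 3.47 for CLU (SE 0.49, adjusted p = 0.00402). Replicate 5 is the only library with averages of both classes, and there LB PE had 365 CPM of CLU and MB ICM 9.36 CPM, a ratio of 39.0, while for APOE the ratio was 5.40 and for APOA1 2.06. With the replicate block as a fixed term none of the 3 was called, at 2.17 for APOA2 (adjusted p = 0.0927), 2.07 for APOE (adjusted p = 0.106) and 3.35 for CLU (adjusted p = 0.0948). Over cells of at least 50000 reads none was called either, with changes of 1.35 for APOA2 (adjusted p = 0.0727), 0.79 for APOE (adjusted p = 0.659) and 2.75 for CLU (adjusted p = 0.0943). APOE also lost the call without replicate 1 (1.99, adjusted p = 0.118), without replicate 3 (2.15, adjusted p = 0.0663) and without replicate 5 (2.59, adjusted p = 0.235), and CLU without replicate 5 (2.82, adjusted p = 0.0765). By limma, 0 of the 4 were called between LB TE and LB EPI, where 15.2% of genes were called in either direction, between LB EPI and MB ICM (5.1%), between LB TE and MB TE (0.191%) or between MB TE and EB (0.997%). At an unadjusted p under 0.05 the numbers were 2, 1, 0 and 2 in that order, and limma-voom called 0 in each.

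**Figure D4:**
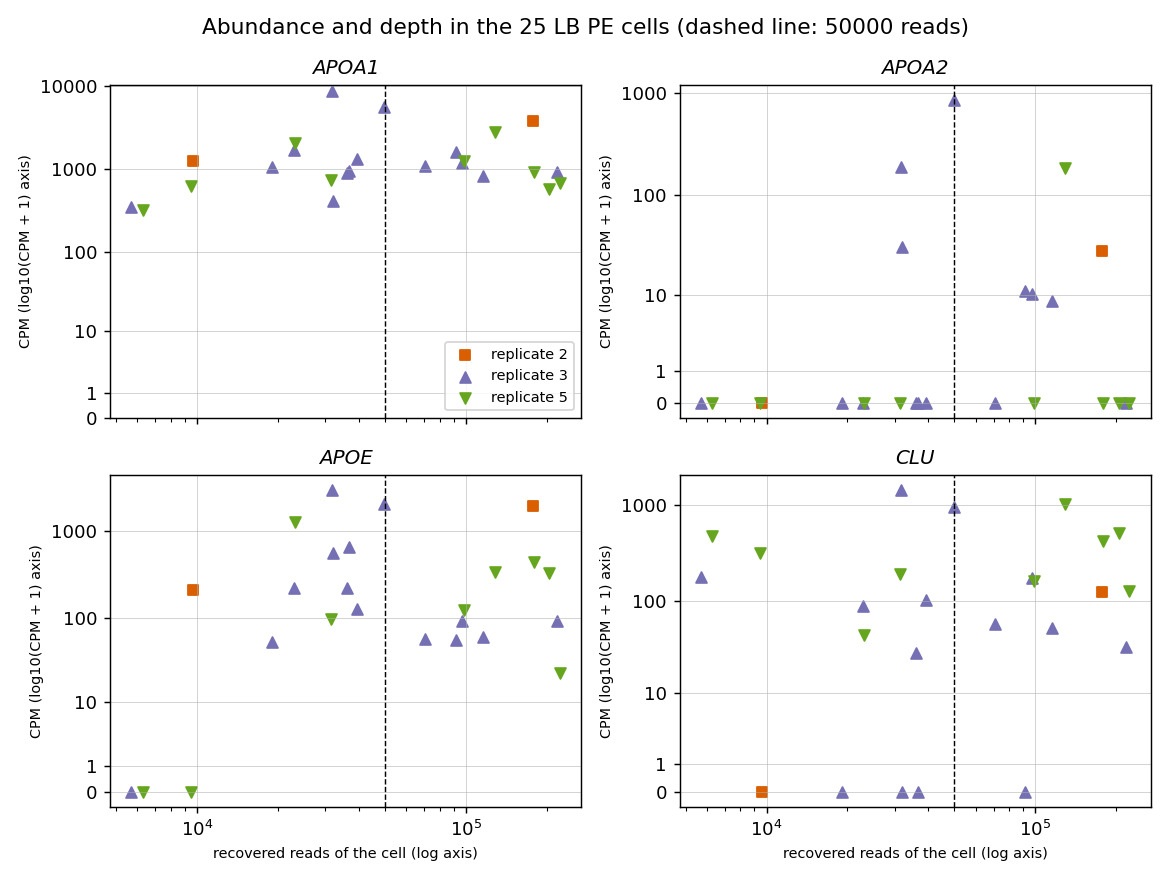
Abundance of the 4 genes in each of the 25 LB PE cells against the reads recovered for that cell, with a dashed line at 50000 reads. A cell of 31693 reads and a cell of 49692 reads, both of replicate 3, carry the highest APOA1, APOE and CLU levels of the LB PE cells of their library.

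Within LB PE, a few cells were high for all 4 genes. A replicate 3 cell of 31693 reads had 8803 CPM of APOA1, 189 CPM of APOA2, 2966 CPM of APOE and 1451 CPM of CLU. A replicate 3 cell of 49692 reads had 5594 CPM of APOA1, 845 CPM of APOA2, 2033 CPM of APOE and 966 CPM of CLU. These were the highest LB PE cells of their library for each of the 4 genes, and both lie under the limit of 50000 reads set for deep cells. In replicate 5, a cell of 128416 reads ranked highest for APOA1 at 2796 CPM, for APOA2 at 187 CPM and for CLU at 1036 CPM. Replicate 2 gave 2 LB PE cells, too few for an average, and the deeper of them had 3855 CPM of APOA1, 28.1 CPM of APOA2, 1930 CPM of APOE and 124 CPM of CLU. The median LB PE cell of replicate 3 had 1078 CPM of APOA1, 110 CPM of APOE and 54.3 CPM of CLU, and that of replicate 5 had 733 CPM, 122 CPM and 317 CPM. Over medians of cells none of the 4 was called between LB PE and LB EPI or LB TE, with APOA1 at 2.20 against LB EPI (adjusted p = 0.0985) and 2.26 against LB TE (adjusted p = 0.0985) and CLU at 2.91 against LB EPI (adjusted p = 0.0643) and 1.52 against LB TE (adjusted p = 0.356).

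Across LB PE cells the ranks of the genes were compared within a library. Over the 14 cells of replicate 3, which share a library, APOA1 had a Spearman rho of 0.38 with APOE and 0.43 with CLU. Over the 9 cells of replicate 5 it had 0.72 with APOE and -0.22 with CLU. In replicate 3, APOE had a rho of 0.54 with the summed hypoblast markers and -0.75 with the summed epiblast markers, and in replicate 5 these were 0.20 and -0.23. CLU had a rho of 0.69 with the summed trophectoderm markers in replicate 3 and of -0.45 in replicate 5. These are descriptions of few cells of uneven depth.

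Genes that work with apolipoproteins were counted in lists. A list gene that reached 10 CPM only in LB PE had to be higher there, so the counts describe the lists and test nothing about them. Making a particle needs lipid loading in the endoplasmic reticulum, and the list of assembly and secretion had 26 tested genes. Of these, 5 were called higher and 3 lower in LB PE than in LB TE, with a median log2 change of -0.18 against 0.02 over all genes. Against LB EPI, 6 were called higher and 0 lower, with a median of 0.33 against -0.01 over all genes. Of all genes, 2.46% were called higher and 3.39% lower than in LB TE. Against LB EPI, these shares were 2.98% and 2.41%. MTTP, the transfer protein that loads lipid onto APOB, had 23.6 CPM (replicate 3) and 29.5 CPM (replicate 5) in LB PE. It had 1.85 CPM (replicate 3) and 0.743 CPM (replicate 5) in LB TE, and 0.956 to 1.47 CPM in LB EPI. The groups were far apart, with log2 changes of 1.69 against LB TE (SE 0.35, adjusted p = 0.00467) and 1.75 against LB EPI (SE 0.32, adjusted p = 0.00278). Without replicate 5 neither was called, and without replicate 3 only that against LB EPI was.

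Other genes of that list were called as well. TM6SF2, which promotes lipid loading of secreted particles, averaged 22.8 ± 6.66 CPM in LB PE, 4.71 ± 0.518 CPM in LB TE and 1.85 ± 1.54 CPM in LB EPI, and was called over LB TE (adjusted p = 0.0301) and over LB EPI (adjusted p = 0.00445). MOGAT2, a monoacylglycerol acyltransferase, averaged 20.5 ± 8.81 CPM in LB PE, 0.337 ± 0.477 CPM in LB TE and 0.747 ± 0.351 CPM in LB EPI, and was called over LB TE (adjusted p = 0.0114) and over LB EPI (adjusted p = 0.0103). Both MOGAT2 calls were lost without replicate 3 and over cells of at least 50000 reads (adjusted p = 0.17 and 0.183), and that over LB TE also without replicate 5. CIDEB, which acts in the growth of lipoprotein particles, averaged 28.1 ± 15.6 CPM in LB PE and 1.61 ± 0.731 CPM in LB TE (log2 change 1.65, SE 0.36, adjusted p = 0.007), not called without replicate 5. ACSL3, a fatty acid CoA ligase, was between the others in LB PE, at 479.7 ± 276 CPM against 1056 ± 195 CPM in LB TE and 137 ± 40.8 CPM in LB EPI. Its log2 change was -1.24 against LB TE (adjusted p = 0.0331) and 1.69 against LB EPI (adjusted p = 0.00281, lost without replicate 3). MOGAT1, another such acyltransferase, averaged 18.8 ± 1.62 CPM in LB PE and 113 ± 27.4 CPM in LB TE (log2 change -2.08, SE 0.37, adjusted p = 0.00151, lost without replicate 5).

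On day 8 MTTP, MOGAT2 and CIDEB were lower in trophectoderm than in the inner cell mass. MTTP averaged 0.456 ± 0.400 CPM in MB TE and 14.4 ± 13.7 CPM in MB ICM (log2 change -1.09, SE 0.29, adjusted p = 0.0188), and MOGAT2 averaged 0.201 ± 0.213 CPM in MB TE and 36.6 ± 22.6 CPM in MB ICM (-2.12, SE 0.30, adjusted p = 6.03e-05). CIDEB changed by -1.12 (SE 0.30, adjusted p = 0.0188). Over the list, 5 genes were called higher and 3 lower there, where 5.97% of all genes were called higher and 4.11% lower. Between LB PE and MB ICM, 0 of the 26 were called by limma or limma-voom (4 at an unadjusted p under 0.05). Of all genes, 0.59% were called higher in that comparison, and 0 among 26 is near that share.

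**Figure D5:**
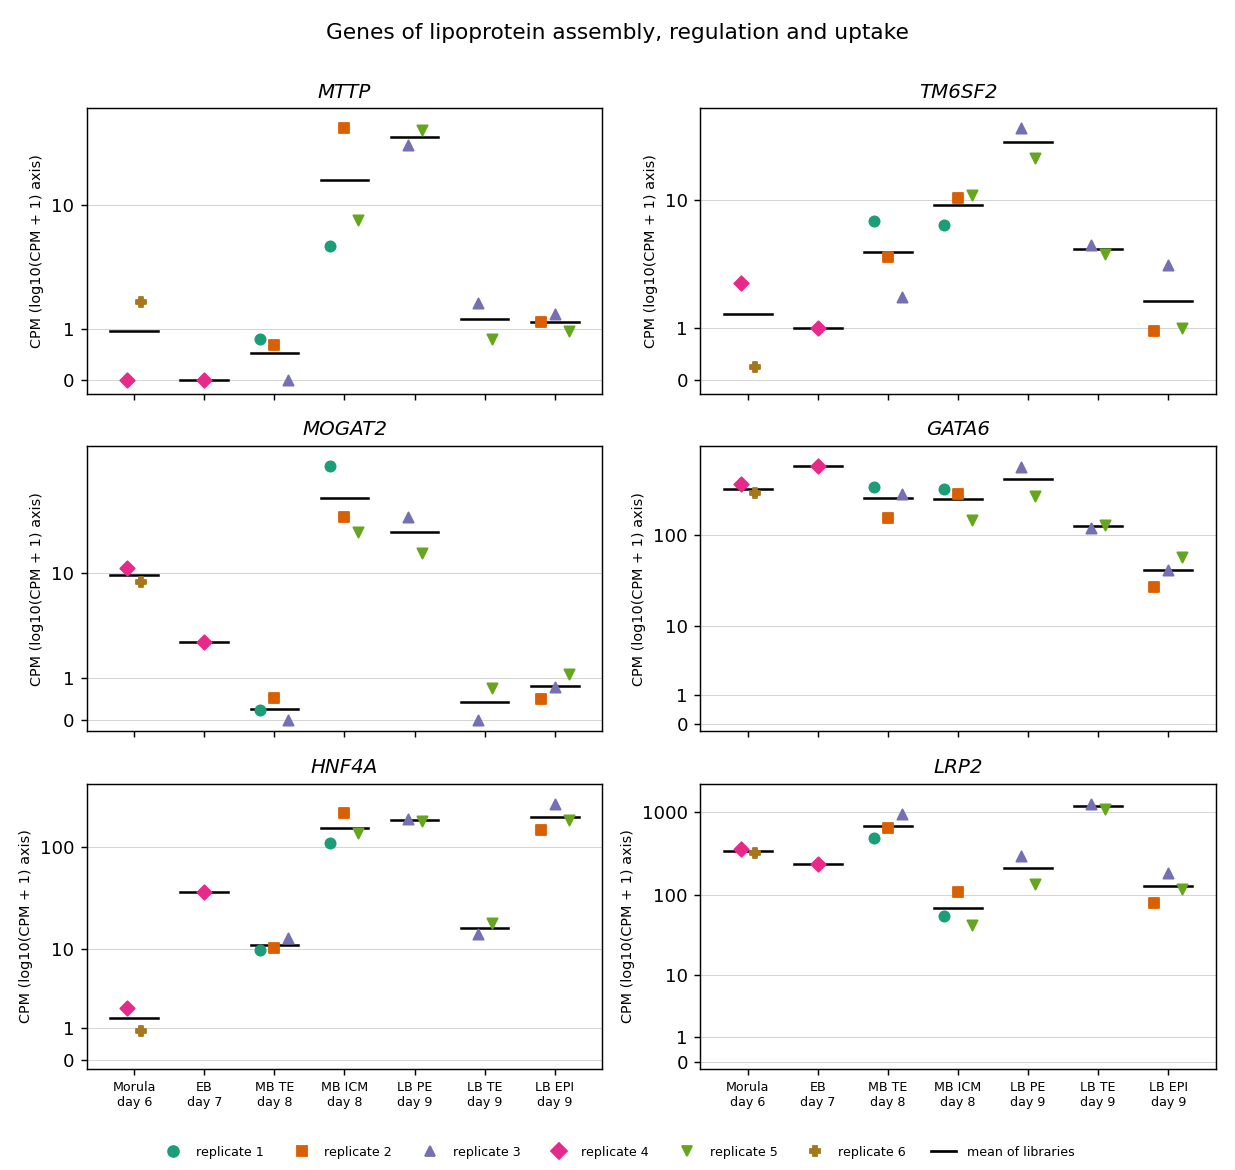
Abundance of MTTP, TM6SF2 and MOGAT2 (assembly), GATA6 and HNF4A (regulators) and LRP2 (a receptor) by class, in CPM on a log10(CPM + 1) axis. Each symbol is 1 library's mean and the bar the mean of the libraries. MTTP averaged highest in LB PE, but the MB ICM library of replicate 2, at 30.1 CPM, lay above both LB PE libraries. GATA6 averaged 396.1 CPM in LB PE, 124.7 CPM in LB TE and 42.4 CPM in LB EPI, and it had 540 CPM in EB. HNF4A lay between 144 and 252 CPM in LB EPI and at 174 and 184 CPM in LB PE, and LRP2 averaged highest in LB TE.

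Regulators of apolipoprotein genes were measured in a list of 24 tested genes, of which 4 were called higher and 0 lower in LB PE than in LB TE, and 4 higher and 1 lower than in LB EPI. The shares of all genes called higher and lower were 2.46% and 3.39% against LB TE, and 2.98% and 2.41% against LB EPI. The list medians were 0.10 against LB TE and -0.01 against LB EPI, beside 0.02 and -0.01 over all genes. HNF4A, the nuclear receptor that activates apolipoprotein genes in liver, had 184 CPM (replicate 3) and 174 CPM (replicate 5) in LB PE, against 14.3 CPM (replicate 3) and 18.6 CPM (replicate 5) in LB TE (log2 change 2.84, SE 0.35, adjusted p = 5.66e-05). It had 144 to 252 CPM in LB EPI and was not called between LB PE and LB EPI (-0.07, SE 0.33, adjusted p = 0.966). The endoderm factors GATA4 and GATA6 were called higher in LB PE in both comparisons, GATA4 by 1.77 over LB TE and 1.65 over LB EPI and GATA6 by 1.51 over LB TE and 2.87 over LB EPI. GATA4 reached 10 CPM only in LB PE. Without replicate 3 the call of GATA6 over LB TE and both calls of GATA4 were lost. APOBEC1, the enzyme that edits APOB RNA in the intestine, had 34.2 CPM (replicate 3) and 8.05 CPM (replicate 5) in LB PE and at most 0.893 CPM in LB EPI (1.45, SE 0.31, adjusted p = 0.00726). It had 10.6 CPM (replicate 3) and 0 (replicate 5) in LB TE, a difference that was not called (adjusted p = 0.0892). HNF4A, GATA4 and GATA6 are also on the list of hypoblast markers.

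Of the genes for lipoprotein receptors and their adaptors, LRP2 and DAB2 were lower in LB PE than in LB TE. Of 20 tested, 0 were called higher and 2 lower than in LB TE, and 0 were called against LB EPI by limma or limma-voom (4 at an unadjusted p under 0.05). With 2.46% of all genes called higher over LB TE and 2.98% over LB EPI, a count of 0 among 20 is near the share over all genes. The share of all genes called lower than in LB TE was 3.39%. LRP2, megalin, takes up lipoproteins and vitamin carriers, and DAB2 is its adaptor. LRP2 had 294 CPM (replicate 3) and 134 CPM (replicate 5) in LB PE, against 1234 CPM (replicate 3) and 1086 CPM (replicate 5) in LB TE (log2 change -2.48, SE 0.38, adjusted p = 0.000443, not called without replicate 5). DAB2 averaged 128 ± 53.8 CPM in LB PE and 1330.4 ± 199 CPM in LB TE (-3.32, SE 0.35, adjusted p = 7.93e-06), and it is also on the list of trophectoderm markers. On day 8, LRP2 averaged 681 ± 227 CPM in MB TE and 69.2 ± 34.5 CPM in MB ICM (3.04, SE 0.32, adjusted p = 2.86e-06).

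Few other apolipoproteins were found. Of 18 listed, 9 had a row and 6 were tested, and 0 were called in either comparison of LB PE on day 9 by limma or limma-voom, with 0 at an unadjusted p under 0.05. As 2.46% of all genes were called higher over LB TE and 2.98% over LB EPI, 0 among 6 is near the share over all genes. APOM averaged 39.6 ± 19.6 CPM in LB PE, 15.9 ± 2.71 CPM in LB TE and 37.8 ± 24.8 CPM in LB EPI. APOA4 and APOC3 lie beside APOA1 in the gene order of the ARS-UCD2.0 assembly, and the APOA4 gene model overlaps that of APOA1. APOA4 reached at most 11.6 CPM in any average, and APOC3 at most 1.48 CPM. Whether reads of the overlap were shared is not stated. In LB PE, APOA4 reads were found in 2 cells and APOC3 reads in 0 of 25, which allows a share of up to 12%.

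Lists of secreted and lipid-handling proteins were short, with 9 to 20 tested genes, so their counts show little. Over all genes, 2.46% were called higher and 3.39% lower than in LB TE. Against LB EPI, the shares were 2.98% higher and 2.41% lower. Of 10 tested proteins of yolk sac and liver, FGB, a chain of fibrinogen, was called higher in LB PE, at 12.7 ± 9.13 CPM against 0.71 CPM in LB TE (adjusted p = 0.0266) and 0.591 ± 0.330 CPM in LB EPI (adjusted p = 0.0169). FGB reached the filter of 10 CPM only in LB PE of replicate 5 (19.1 CPM), so it was tested only through the class where it is high, and its call follows in part from the filter. The lysosomal protease CTSL was lower than in LB TE (log2 change -2.49, adjusted p = 0.00771, not called without replicate 5). Of 9 tested lipid efflux and plasma lipid genes, 2 were called higher than in LB EPI, among them PON2, a lactonase (adjusted p = 0.0428), and 0 were called against LB TE by limma or limma-voom (3 at an unadjusted p under 0.05). PON2 lost its call when any of the 6 libraries was left out. Of 20 tested partners of clusterin, chaperones and complement regulators, HSP90B1, a chaperone of the endoplasmic reticulum, was called higher than in LB EPI (0.78, adjusted p = 0.0421, lost without replicate 1, 2, 3 or 5). Against LB TE, the complement inhibitor CD59 was higher, at 156 ± 91.8 CPM in LB PE and 16.9 ± 12.8 CPM in LB TE (2.59, adjusted p = 0.00157), and the complement regulators CD46 (-2.33, adjusted p = 0.00148) and SERPING1 (-1.49, adjusted p = 0.0381) were lower. None of these 3 was called without replicate 5. FGB lost both calls without replicate 2, and its call against LB TE also without replicate 1.

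The genes whose levels ran most like each member over the 16 averages were found by Pearson correlation of log2(CPM + 10), as a description of averages that share libraries and classes. For APOA1 they were AGRN (r = 0.93), ABCB6, DCAF4, ZFP36 and PEX11G. For APOA2 they included ETV5 (r = 0.94), APOBEC1, TNFAIP8L3 and GATA4. APOA2 had at most 4.16 CPM in any average outside LB PE. Its r, also with other members, thus rests mostly on the 2 LB PE averages. For APOE they were FBLN1 (r = 0.92), CDH2, SSX2IP, COL18A1 and SFRP2, of which FBLN1 and COL18A1 encode matrix proteins. For CLU they were HAVCR1 (r = 0.89), SUSD3, ADAMTSL5, PLOD2 and DBNDD2. Between members r was 0.80 for APOA2 and APOE, 0.79 for APOA2 and CLU, 0.68 for APOA1 and APOE, 0.62 for APOE and CLU, 0.56 for APOA1 and APOA2 and 0.49 for APOA1 and CLU. With HNF4A, r was 0.75 for APOE, 0.72 for APOA1, 0.40 for APOA2 and 0.18 for CLU.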

How the data were processed

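Cells were lysed singly, their poly(A) RNA was primed with oligo(dT) and amplified by PCR, and barcoded cDNAs were then pooled, per the labels' protocols. The tools named in the submitters' processing notes are featureCounts, HISAT2, Seurat and Trim Galore, with the build ARS-UCD1.2. Settings, cell filters, the treatment of doublets and any counting of molecular identifiers are not stated there. Values in the deposited abundance table are on a natural log scale, ln(1 + value per 10000), as their sums over genes show. Undoing the log gave CPM. In each cell 100% of values were whole multiples of its smallest step, within 0.1 reads, which gave its read total. Of 288 cells in the authors' cell table, 286 have values. All 48 cell barcodes occur in at least 2 libraries, and cells were told apart by library and barcode.

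Cells of 1 class in 1 library (at least 3) were averaged in CPM, and log2(CPM + 10) was fitted with limma 3.58.1 in R 4.3.3 (trend, robust), with the library as a random block (statmod 1.5.0). Genes with 10 CPM in at least 1 average were tested, 12540 in all, with Benjamini-Hochberg adjustment, and every adjusted p is from limma. The library is the replicate, because cells are not. Averages of 1 library deviated together in each of 16 pairs (correlation 0.11 to 0.24), which pairs them. The labels tie no library to particular embryos. The p-values therefore cover the spread between these libraries alone, and it may be technical. Intervals of shares and limits from 0 cells cover counting error only. Thinned shares are expected shares at 20000 reads.

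The members and gene lists were chosen with earlier results of these data known. Named list genes are those called in LB PE against LB EPI or LB TE, up to 4 per list and comparison with the smallest adjusted p, and the 5 genes most correlated with each member; some of these are not reported here. Comparing medians over cells, and repeating the alternatives for named list genes, were chosen after seeing the data. Gene order was read from the RefSeq gene table of ARS-UCD2.0, another build than that of the files, so no coordinates are given.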

Additional observations from a re-analysis of the deposited data

How the results depend on the processing

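The fitted direction of every called member held under each of the 18 alternatives, except that APOA2 was 0 in all class medians over cells. Within replicate 3 alone, deep LB PE cells were lower than deep LB EPI cells for APOE and lower than deep LB TE cells for CLU. For APOA2, deep LB PE cells of that library had 5.97 CPM, against 4.37 CPM in deep LB TE cells and 2.36 CPM in deep LB EPI cells. APOA1 in LB PE over LB EPI ranged from 1.96 to 3.12 when 1 library was left out, and over LB TE from 2.24 to 2.93; in MB TE against MB ICM it ranged from -1.89 to -1.49. APOA2 over LB EPI ranged from 1.57 to 2.95, over LB TE from 1.62 to 2.64 and over MB ICM from 1.53 to 2.94. APOE ranged from 1.93 to 2.33 over LB EPI, from 3.05 to 3.50 over LB TE and from 1.99 to 2.84 over MB ICM. CLU ranged from 3.16 to 3.72 over LB EPI, from 0.80 to 3.52 over LB TE and from 2.82 to 3.88 over MB ICM.

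Calls were lost as follows; the cause was not tested. Over medians of cells, the 3 LB PE changes (over LB EPI, LB TE and MB ICM in that order) were 0, 0 and 0 for APOA2, 0.97, 1.99 and 1.97 for APOE and 2.91, 1.52 and 3.11 for CLU, while APOA1 was 2.20 and 2.26 over the first pair and -1.34 in MB TE against MB ICM. With cells of at least 50000 reads, APOE was 0.77, 1.85 and 0.79, CLU was 1.44 over LB TE and 2.75 over MB ICM, and APOA2 was 1.35 over MB ICM. With averages of 1 cell allowed, CLU was 3.09, 1.82 and 2.47, APOE was 2.81 over MB ICM and APOA1 was -1.66 in MB TE against MB ICM, which with 5 cells required was -1.49. With limma-voom on summed reads, APOE was 1.97 over LB EPI and 1.999 over MB ICM, CLU was 1.56 over LB TE and 3.82 over MB ICM, and APOA2 was 4.51 over MB ICM. With the mean of log2 values, APOE was 1.21 over LB EPI and 1.75 over MB ICM. Over MB ICM, APOE was 2.445 with no filter and 2.59 with a pseudocount of 1 CPM. With the replicate block as a fixed term, the changes over MB ICM were 2.17 for APOA2, 2.07 for APOE and 3.35 for CLU; 2 uncalled APOA1 changes were called with it, LB EPI against MB ICM (-1.40) and the difference between days (2.13), and no call of a member changed with no replicate block. Uncalled APOA1 changes over EB in MB ICM were called with 1 cell allowed (3.34).

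Uncalled changes between LB TE and LB EPI turned sign. APOA1 was -0.0053 with no filter, -0.15 with 1 cell, -0.046 with the mean of log2 values, -0.052 over medians, -0.15 with no replicate block and -0.28 to 0.33 when 1 library was left out. APOA2 was -0.45 with limma-voom and -0.056 to 0.31 when 1 library was left out.

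Called genes numbered 676 for LB PE against LB EPI, and 428 with no filter, 260 with 1 cell, 402 with limma-voom, 387 with no replicate block and 260 to 617 when 1 library was left out (260 without replicate 5, 408 without replicate 2). For LB PE against LB TE they were 734, and 298 with 1 cell, 1246 with the mean of log2 values, 439 with no replicate block and 168 (without replicate 5) to 705 when 1 library was left out. For LB TE against LB EPI they were 1902, and 1081 with 1 cell, 3165 with limma-voom and 851 to 1876 when 1 library was left out (851 without replicate 3, 1040 without replicate 5). For MB TE against MB ICM they were 1264, and 488 with 1 cell, 818 with 5 cells and 635 (without replicate 2) to 1260 when 1 library was left out. The median LB PE cell had 39210 reads, which limits how low a level a single cell can show.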
